A study of Mus musculus with 7 samples.

Results

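Glycolysis breaks glucose down to pyruvate and lactate in the cytoplasm, and the hypoxia response is the set of genes that cells turn on when oxygen is short. The genes described here are 36 that were named for these 2 processes: the carriers that move glucose and lactate, the enzymes from hexokinase to lactate dehydrogenase, the hypoxia-inducible factor (HIF) alpha subunits with the enzymes that mark them for destruction, and genes that HIF is known to induce. Each was found in the deposited expression table by the first symbol of its row, and all 36 of the 36 were found among 24537 genes. All 36 also reached 1 FPKM, the unit of the table (fragments scaled to transcript length and to the library's reads), in at least 2 of the 7 libraries, and so were among the 13028 genes tested. Car9 reached it in 3 libraries and Eno2 in 6, and the other members in 7. Rows of Pigq, Eno1b and Pdpk1, which carry Gpi1, Eno1 or Pdk1 only as an alias, belong to other genes and were not used.

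Microglia, the resident macrophages of the brain, had been sorted as cells with intermediate CD45 and with CX3CR1 from the brains of C57BL/6 mice bearing the 005 glioma, 35 days after the tumour cells were implanted. The groups were mice given control IgG (2 libraries), mice given an antibody against CTLA4, a checkpoint receptor of T cells (2 libraries), and mice given the CTLA4 antibody together with an antibody that depletes CD4 cells (3 libraries). All 7 libraries thus came from tumour-bearing brains, and none from a brain without a tumour was used here. The age and sex of the mice, the antibody doses, and whether a library is 1 mouse or a pool are not given in the sources used here, so a p-value speaks of the spread among these libraries, part of which may be technical. The sample sheet numbers go against 1 label. In the table, both anti-CTLA4 columns bear 29 and 30, but the header's command has MIFNGRKO libraries under those numbers, a name that reads as interferon gamma receptor knockouts, and there and in the sample descriptions anti-CTLA4 has 10 and 11. The text therefore says libraries labelled anti-CTLA4, and every direction against them rests on that label.

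As background, hexokinase and phosphofructokinase catalyse the committed early steps of glycolysis, and most steps have several isozymes whose use differs between tissues. Under normal oxygen, prolyl hydroxylases such as Egln1 and Egln3 modify the HIF alpha subunits, which are then degraded. When oxygen is low the subunits persist, pair with Arnt and bind a short DNA core, and their targets include glucose carriers, glycolytic enzymes, Vegfa and the prolyl hydroxylases themselves. Microglia and other macrophages use more glycolysis when they are activated, and glioma tissue often has regions short of oxygen.

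The stretches of 250 bases before the annotated start of 4 members are shown because they belong to 2 pairs of genes for the same step, the hexokinases Hk1 and Hk2 and the lactate carriers Slc16a1 and Slc16a3, whose levels in the libraries labelled anti-CTLA4 differed from IgG in opposite directions, although Slc16a3 did not pass the test. They are RefSeq sequence of build GRCm38.p6, written 5′ to 3′ on the gene's strand, with the HIF core ACGTG or its reverse complement CACGT in capitals.
Hk1, chr10:62340422-62340671, minus strand: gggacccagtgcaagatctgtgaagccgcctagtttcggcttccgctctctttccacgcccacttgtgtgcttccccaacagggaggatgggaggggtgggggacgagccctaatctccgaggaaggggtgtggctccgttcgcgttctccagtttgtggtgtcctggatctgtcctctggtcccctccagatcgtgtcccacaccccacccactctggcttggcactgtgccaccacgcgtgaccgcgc
Hk2, chr6:82774455-82774704, minus strand: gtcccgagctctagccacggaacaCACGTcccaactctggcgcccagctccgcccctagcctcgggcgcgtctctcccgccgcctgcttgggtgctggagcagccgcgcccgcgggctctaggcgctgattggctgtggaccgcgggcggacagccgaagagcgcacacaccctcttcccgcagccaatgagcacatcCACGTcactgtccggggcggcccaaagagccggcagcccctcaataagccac
Slc16a1, chr3:104638414-104638663, plus strand: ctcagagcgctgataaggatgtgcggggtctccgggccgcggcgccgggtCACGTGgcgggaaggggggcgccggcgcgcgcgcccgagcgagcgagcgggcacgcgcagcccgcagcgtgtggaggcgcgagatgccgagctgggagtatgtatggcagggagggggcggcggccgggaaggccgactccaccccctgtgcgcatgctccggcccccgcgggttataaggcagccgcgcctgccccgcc
Slc16a3, chr11:120948817-120949066, plus strand: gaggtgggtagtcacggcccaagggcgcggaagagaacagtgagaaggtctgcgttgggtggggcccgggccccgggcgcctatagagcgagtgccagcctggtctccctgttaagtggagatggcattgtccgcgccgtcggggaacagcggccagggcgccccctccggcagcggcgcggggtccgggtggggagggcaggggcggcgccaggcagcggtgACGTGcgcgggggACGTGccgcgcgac

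Hk1 held 0 matches to ACGTG on either strand, while Hk2, Slc16a1 and Slc16a3 each held 2. The 2 in Slc16a1 are the same place read on both strands, since CACGTG holds the core in each direction, and in Slc16a3 both matches lie within the last bases before the start. The hexokinase found at a higher level under the anti-CTLA4 label held matches to ACGTG and the one at a lower level held none. Both lactate carriers held them. The other members that passed as lower than IgG under that label were mixed. Pfkm and Pgk1 held 2 matches each and Egln1 held 1, while Gpi1, Pfkl, Aldoc and Tpi1 held 0. Pfkfb3, which passed as higher, held 2. Of the 36 members, 32 had an entry in the promoter table and 17 of these (53.1%) held ACGTG on either strand, against 16.6% of all 32851 promoters in the table and 21.6% of the 9843 promoters of tested genes with an entry. Ldha held 5 matches, the most of any member, and Gapdh, Aldoa, Tpi1, Pkm and Vegfa held 0. With GCGTG, a variant of the core, 56.2% of the members matched, against 28.2% of all promoters and 45.4% of those of tested genes. On this variant the hexokinases stood the other way, with 3 matches in Hk1 and 0 in Hk2. Slc16a1 held 2 and Slc16a3 held 0. A match is a description of these letters and no measure of binding. The members include genes chosen because HIF is known to induce them, so their higher share is no separate result. The entry used for Hif1a, with 3 matches to ACGTG, starts 6543 bases from the deposited start of that gene. The members outside these 32 are Epas1, Bnip3l, Ndrg1 and Ero1l.

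The libraries held an implied 49853447 to 61850986 reads in genes, so a member's value rested on 60 reads at the least (Car9), 218 or more for every other member, and 103997 at the most (Pkm). The homeostatic microglia markers were present in every library (P2ry12 at 147 to 1088 FPKM, Tmem119 at 243 to 1001). Markers of other cell types moved with the groups. The summed level of 15 oligodendrocyte precursor-like and tumour genes was 801 to 1125 FPKM in IgG, 45.9 to 111 in the libraries labelled anti-CTLA4 and 198 to 678 in CD4 depletion, and 14 of the 15 were lower than IgG in the libraries labelled anti-CTLA4. The summed homeostatic list was 4631 to 5776, 8583 to 12935 and 3924 to 6469 FPKM in the same order, and the libraries labelled anti-CTLA4 had 4 of its 15 genes higher than IgG. CD4 depletion replicate 1 stood apart with 1051 FPKM summed over the recruited monocyte list and 530 over the neutrophil list, against at most 75.7 and 182 in any other library. S100a8 (227 FPKM) and S100a9 (203) held most of that neutrophil sum. The neutrophil list was split, as Ly6g, Camp, Ngp, Ltf and Csf3r were highest in the second of the libraries labelled anti-CTLA4. Mural and fibroblast genes summed to 18.0 to 28.7 FPKM in IgG, 178 to 349 under the anti-CTLA4 label and 35.7 to 173 in CD4 depletion, and 6 of 9 tested were higher under that label than in IgG. Endothelial genes summed to 20.8 to 21.9, 55.0 to 56.5 and 26.5 to 46.3 FPKM (5 of 8 higher), and erythroid genes to 47.4 to 328, 939 to 980 and 166 to 576 FPKM (4 of 5 higher). Of 4 Y-linked genes, Ddx3y (2.52 to 4.88 FPKM in CD4 depletion, 0.149 to 1.21 in the other libraries), Uty and Eif2s3y were higher in every CD4 depletion library than in any other, while Kdm5d overlapped (0.663 to 1.88 against 0 to 0.746). The part of the sex of the mice in the comparisons with CD4 depletion was not tested. In sorted bulk samples fewer cells of a type and less RNA per cell cannot be told apart, and the part of these differences in any result below was not tested.

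**Figure D1:**
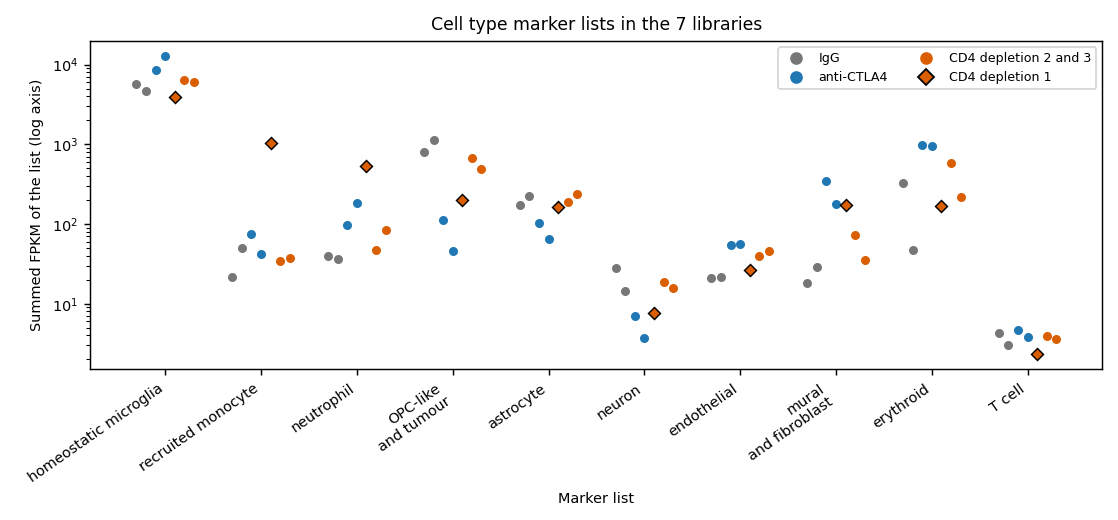
Summed FPKM (log axis) of 10 cell type marker lists, 1 point per library, with IgG in grey, the libraries labelled anti-CTLA4 in blue and CD4 depletion in orange. CD4 depletion replicate 1 (diamond) is highest for the recruited monocyte and neutrophil lists, and both libraries labelled anti-CTLA4 are lowest for the oligodendrocyte precursor-like and tumour list.

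Averaged over the 7 libraries, the members spanned from 276 FPKM for Aldoa, an aldolase, to 0.872 for Car9, a carbonic anhydrase that acts outside the cell. Aldoa, Ldha (252), Pkm (241), Tpi1 (214) and Ldhb (128) were the most abundant per transcript length. Neighbours in that order overlapped library by library: Ldha ran from 135 to 428 FPKM and Pkm from 130 to 400. Gapdh, at 28.7 FPKM, and Pgk1 and Pgam1, at 9.38 and 7.39, stood below the enzymes next to them in the pathway. Their levels are uncertain, because Gapdh shares at least 95% identity over at least 300 aligned bases with 77 other annotated genes, Pgk1 with 4 and Pgam1 with 1, and how reads that match several copies were assigned is not given in the sources used here. The same holds for Bnip3 (5 other genes), Eno1 and Ldha (3 each), and Gpi1, Tpi1, Pkm, Ldhb and Bnip3l (1 each). Pfkp matched 1 other gene, Pitrm1, and Ndrg1 matched 1, Gm17035. Transcripts that overlap a member in the genome were not set aside in the search, so a match need not be a second copy. Of the 36 members, the second of the libraries labelled anti-CTLA4 was the lowest library for 23 (63.9%, against 39.9% of all tested genes), and CD4 depletion replicate 1 was the highest for 18 (50%, against 11.7%).

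**Figure D2:**
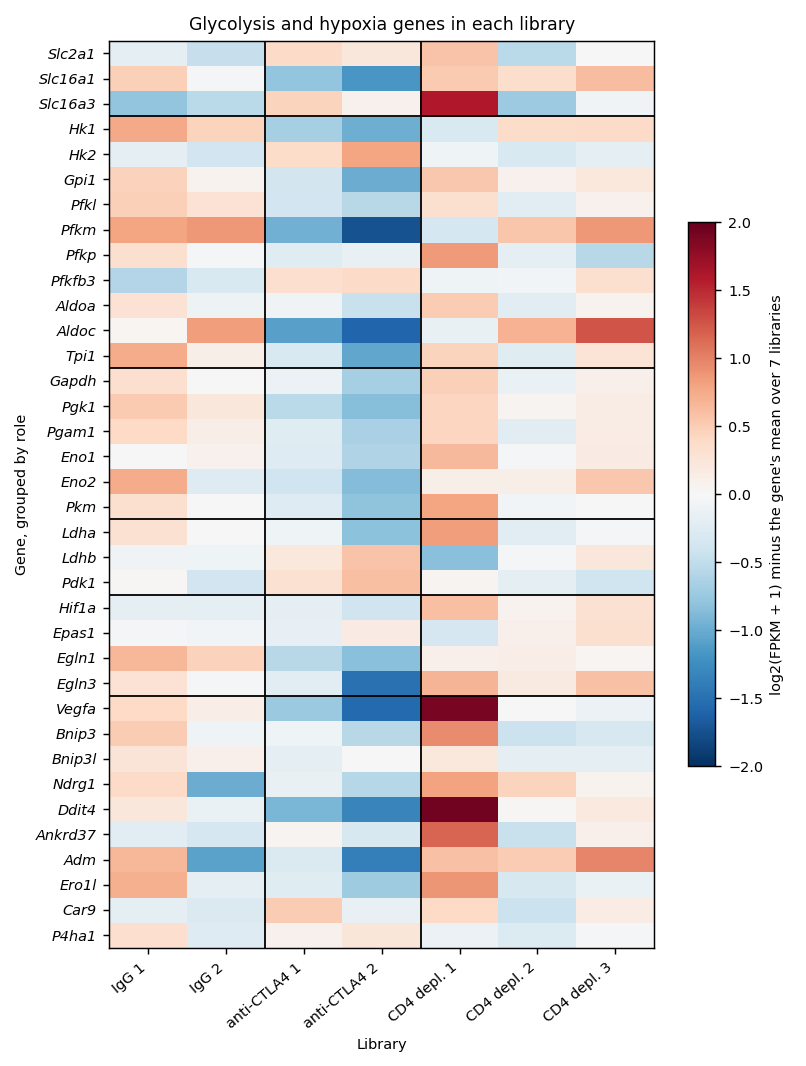
Level of each of the 36 genes (rows, grouped by role) in each of the 7 libraries (columns), as log2(FPKM + 1) minus the gene's mean over the libraries. Most enzyme rows are blue in the libraries labelled anti-CTLA4 while Hk2, Pfkfb3, Ldhb and Pdk1 are red there (no other scaling applied), and Vegfa, Ddit4 and Slc16a3 are darkest in CD4 depletion replicate 1.

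Against control IgG, the libraries labelled anti-CTLA4 had lower levels of 9 members: the glycolytic enzymes Hk1, Gpi1, Pfkl, Pfkm, Aldoc, Tpi1 and Pgk1, the lactate carrier Slc16a1 and the oxygen sensor Egln1. The enzymes Hk2 and Pfkfb3 were higher, but scaling to the homeostatic list took these differences to -0.0046 and -0.0745, neither of them called. The other 25 members did not pass (limma on log2(FPKM + 1), adjusted over all tested genes, threshold 0.05). Of all genes tested, 28.8% were lower and 9.29% were higher, so 9 of 36 lower and 2 of 36 higher stood near the background. The median log2 difference of the members was -0.58 against -0.31 for all tested genes, and 10 of 36 were above 0. Median-of-ratios scaling set the all-gene median at -0.01. Under it 3 members were higher (Hk2, Pfkfb3 and Pdk1), 6 were lower (Egln1, Slc16a1, Hk1, Pfkm, Pgk1 and Aldoc) and 51% of the called genes were higher, against 24.4% before. Scaling to the homeostatic list set the all-gene median at -1.01, where 17 members were lower, 0 were higher and 1.2% of called genes were higher. Leaving out a library moved the calls of members and of all genes together. Without IgG replicate 1, or without the second of the libraries labelled anti-CTLA4, which leaves 1 library in a group, 0 members and 0 of 13028 genes passed, and the median difference of the members was -0.34 and -0.32 (all genes -0.31 and -0.29). Without IgG replicate 2 only Slc16a1 and Egln1 passed, beside 235 genes higher and 440 lower. Without CD4 depletion replicate 1 there were 5 members higher and 13 lower, beside 1644 and 4425 genes.

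CD4 depletion with anti-CTLA4, compared with the libraries labelled anti-CTLA4, showed higher levels of 10 members: Slc16a1, Hk1, Gpi1, Pfkm, Aldoc, Pgk1, Egln1, Egln3, Hif1a and Ddit4. Hk2 was lower, a difference that the same homeostatic scaling took to 0.0893, not called. Of all tested genes 22.8% were higher and 6.59% were lower, so 10 of 36 higher and 1 of 36 lower again stood near the background. The median log2 difference was 0.63 for the members and 0.27 for all tested genes, with 28 of 36 members above 0. Under median-of-ratios scaling, with the all-gene median at 0.01, 3 members were higher (Aldoc, Slc16a1 and Pfkm), 3 were lower (Hk2, Pfkfb3 and Pdk1), and 46.9% of called genes were higher against 77.6% before. Under scaling to the homeostatic list, with the all-gene median at 0.95, 22 members were higher, 0 were lower and 98.6% of called genes were higher. Without the second of the libraries labelled anti-CTLA4, 0 members and 0 of 13028 genes passed, with a median difference of 0.41 for the members and 0.26 for all genes. Without CD4 depletion replicate 2 there were 4 members higher (Slc16a1, Egln1, Pgk1 and Hif1a) beside 979 genes, and without replicate 3 there were 2 (Slc16a1 and Egln1) beside 668 genes, with member medians of 0.76 and 0.69. Without replicate 1, Vegfa joined the higher members and Pdk1 the lower, beside 4133 genes higher and 1158 lower. This comparison shares its control libraries with the first, so opposite signs in the 2 are not separate evidence.

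Between CD4 depletion with anti-CTLA4 and IgG, 0 of 36 members passed the limma test, as did 0 of 13028 genes (0% in either direction). At an unadjusted p under 0.05 there were 3 members and 851 genes, 6.53% of those tested, and the smallest adjusted p of a member was 0.71. The 3 were Egln1, Pfkfb3 and Hif1a. Egln1 was lower by a log2 difference of -0.48 ± 0.15 (SE), Pfkfb3 was higher by 0.52 ± 0.17, and Hif1a was higher by 0.52 ± 0.18. The median standard error of the members was 0.30 on the log2 scale.

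**Figure D3:**
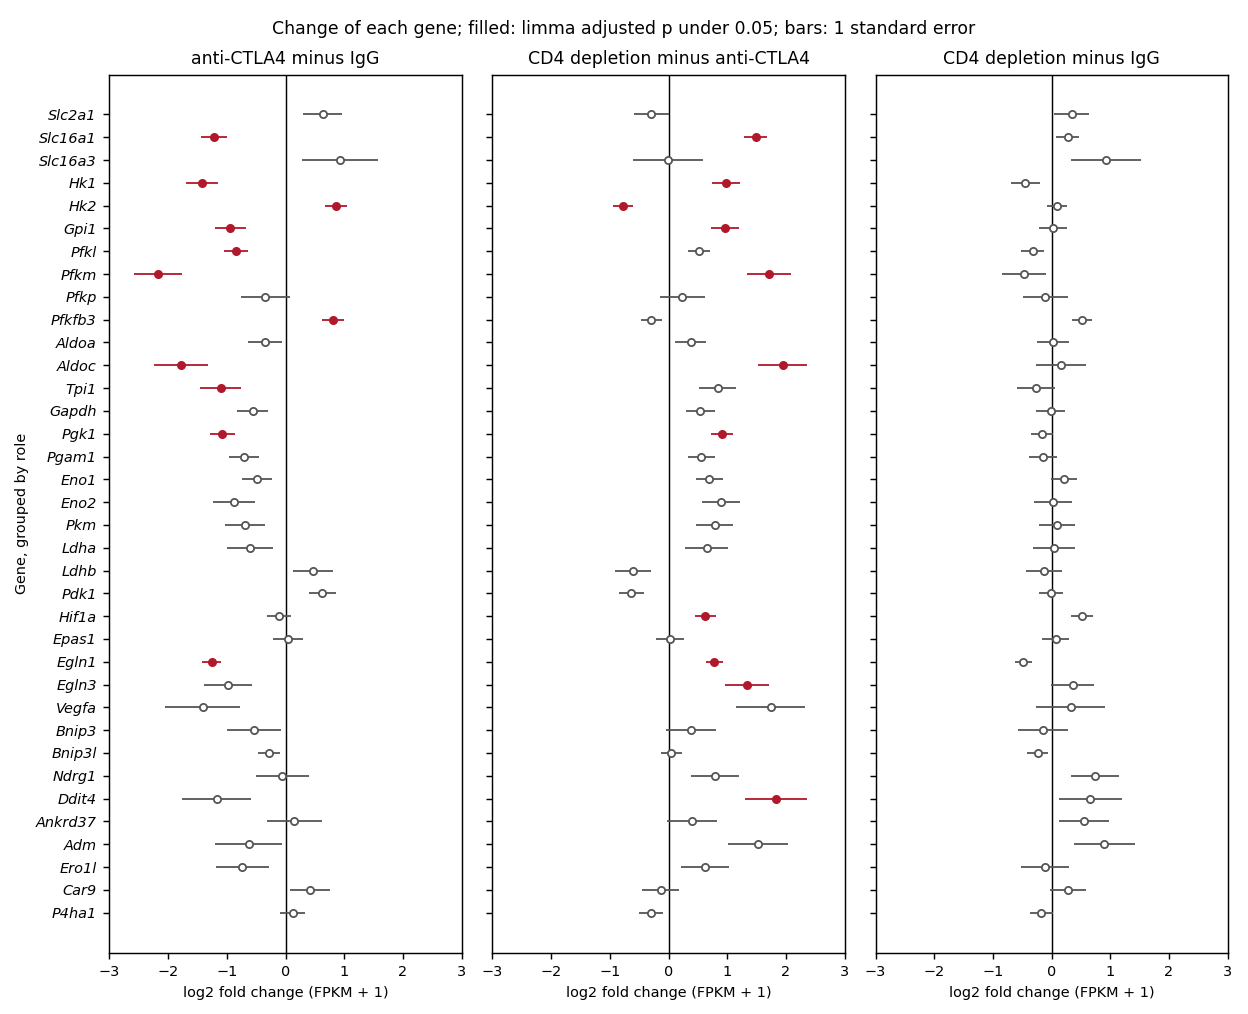
Log2 difference of each member on the log2(FPKM + 1) scale in the 3 comparisons, with bars of 1 standard error. Filled red points passed the limma threshold: 11 in the first panel, 11 in the second and 0 in the third.

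Slc2a1 carries glucose into the cell, and Slc16a1 and Slc16a3 (MCT1 and MCT4) carry lactate and pyruvate across the membrane. Slc16a1 (chr3:104638664-104658462, plus strand, build mm10 as in the deposited table, the build of all gene positions below) was at 24.0 and 16.7 FPKM in the IgG libraries, 9.34 and 6.98 in the libraries labelled anti-CTLA4, and 24.8, 21.9 and 26.6 in CD4 depletion. Both libraries labelled anti-CTLA4 lay below every other library, with a log2 difference of -1.21 ± 0.22 (SE; limma adjusted p = 0.0111) from IgG, and CD4 depletion was higher than them by 1.48 ± 0.20 (adjusted p = 0.0119). Slc16a3 (chr11:120949067-120959000, plus strand) was at 7.06 and 8.62 FPKM in IgG, 18.0 and 13.7 in the libraries labelled anti-CTLA4, and 41.1, 7.37 and 12.2 in CD4 depletion. The highest library was CD4 depletion replicate 1, and the difference between the libraries labelled anti-CTLA4 and IgG, 0.93 ± 0.65 (adjusted p = 0.284), did not pass although the groups did not overlap. Without CD4 depletion replicate 1 that difference had an adjusted p of 0.0227. The library left out is in neither group, so the difference itself did not change, only its test. The difference passed in 2 of 16 alternatives, over which it ran from 0.0815 to 1.27. Slc2a1 was at 30.7 and 25.5 FPKM in IgG, 46.4 and 41.7 in the libraries labelled anti-CTLA4, and 53.3, 24.0 and 35.6 in CD4 depletion, with no call. The summed lactate carriers were made up of Slc16a3 by 22.7% and 34.1% in IgG, 65.9% and 66.3% in the libraries labelled anti-CTLA4, and 62.3%, 25.1% and 31.5% in CD4 depletion. On this share CD4 depletion replicate 1 lay with the libraries labelled anti-CTLA4, and its other 2 libraries with IgG.

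The upper part of the pathway, from hexokinase, which traps glucose as glucose 6-phosphate, to the triose phosphates, held 8 of the 11 members called in the first comparison (2 higher and 6 lower of 10, where 9.29% of all tested genes were higher and 28.8% lower) and 5 of the 11 called in the second (4 higher and 1 lower of 10, where 22.8% of all genes were higher and 6.59% lower). Hk1 (chr10:62268855-62340421, minus strand) was at 43.1 and 34.5 FPKM in IgG, 15.4 and 12.2 in the libraries labelled anti-CTLA4, and 20.1, 32.8 and 33.0 in CD4 depletion. Hk2 (chr6:82725027-82774454, minus strand) was at 11.2 and 9.74 FPKM in IgG, 17.0 and 23.2 in the libraries labelled anti-CTLA4, and 12.2, 10.3 and 11.2 in CD4 depletion. The 2 hexokinases thus ordered the groups in opposite ways, and on neither did the libraries labelled anti-CTLA4 overlap the others. Hk1 differed from IgG by -1.43 ± 0.27 (adjusted p = 0.0115) and rose by 0.98 ± 0.25 with CD4 depletion (adjusted p = 0.0276). Median-of-ratios scaling ended the second of these calls. Hk2 differed from IgG by 0.86 ± 0.19 (adjusted p = 0.0158) and by -0.77 ± 0.18 with CD4 depletion (adjusted p = 0.0213). Scaling to the homeostatic list set these at -0.0046 and 0.09, and neither was then called. Within each library, where scaling cannot act, Hk2 made up 20.7% and 22.0% of the summed Hk1 and Hk2 in IgG, 52.5% and 65.5% in the libraries labelled anti-CTLA4, and 37.8%, 23.9% and 25.3% in CD4 depletion. The libraries labelled anti-CTLA4 were the only 2 of the 7 in which Hk2 was the larger part.

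Phosphofructokinase commits sugar to glycolysis, and its 3 isozymes did not move alike. Pfkm, the muscle type (chr15:98092589-98132447, plus strand), was at 27.2 and 28.8 FPKM in IgG, 7.42 and 3.90 in the libraries labelled anti-CTLA4, and 11.8, 23.05 and 29.02 in CD4 depletion. This was the largest difference of any member from IgG, -2.18 ± 0.41 (adjusted p = 0.0116), and CD4 depletion was higher by 1.71 ± 0.38 (adjusted p = 0.0201). Pfkl, the liver type and the most abundant, was at 65.3 and 56.8 FPKM in IgG, 35.5 and 31.3 in the libraries labelled anti-CTLA4, and 58.1, 39.5 and 49.4 in CD4 depletion. Its difference from IgG was -0.85 ± 0.21 (adjusted p = 0.0199), and that of CD4 depletion did not pass (0.52 ± 0.19, adjusted p = 0.0714). Median-of-ratios scaling ended the call against IgG (-0.49, adjusted p = 0.160). Pfkp, the platelet type, ran from 7.32 to 21.2 FPKM with its highest value in CD4 depletion replicate 1, and was called in neither comparison. Pfkm made up 25.5% and 29.8% of the 3 in IgG, 14.2% and 8.602% in the libraries labelled anti-CTLA4, and 12.95%, 31.9% and 33.9% in CD4 depletion. Pfkfb3 makes fructose 2,6-bisphosphate, an activator of phosphofructokinase, and was at 13.1 and 16.2 FPKM in IgG, 25.8 and 26.7 in the libraries labelled anti-CTLA4, and 19.2, 19.6 and 25.5 in CD4 depletion. It was higher than IgG in the libraries labelled anti-CTLA4 by 0.81 ± 0.19 (adjusted p = 0.0184). Under scaling to the homeostatic list this difference was -0.07 and not called. The CD4 depletion libraries lay between the other groups with no call.

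Of the other enzymes of this stretch, Aldoc, the brain aldolase that astrocytes carry, was at 25.7 and 45.7 FPKM in IgG, 11.2 and 7.64 in the libraries labelled anti-CTLA4, and 22.5, 41.3 and 60.9 in CD4 depletion. The libraries labelled anti-CTLA4 were the lowest, by -1.78 ± 0.46 from IgG (adjusted p = 0.0237) and with CD4 depletion higher by 1.94 ± 0.42 (adjusted p = 0.0194). The summed astrocyte marker list moved the same way, at 171 to 228 FPKM in IgG, 65.0 to 102 in the libraries labelled anti-CTLA4 and 161 to 240 in CD4 depletion. Of its 8 genes, 3 were called lower in the first comparison and 2 higher in the second, beside 28.8% and 22.8% of all tested genes. The list was not uniform: 1 of the 8 (Gjb6) was above 0 in the first comparison and 6 were in the second. Aldh1l1 was lower in CD4 depletion (1.75 to 3.07 FPKM) than in the libraries labelled anti-CTLA4 (3.36 to 5.39). The oligodendrocyte precursor-like and tumour list also moved this way, at 801 to 1125, 45.9 to 111 and 198 to 678 FPKM in the same order. Of its 15 genes, 14 were called lower in the first comparison and 12 higher in the second. The part of RNA from astrocytes or from cells of that other list in the Aldoc values was not tested. Aldoa, the main aldolase, ran from 198 to 385 FPKM with overlapping groups and no call. Gpi1, which turns glucose 6-phosphate into fructose 6-phosphate, was at 63.2 and 48.0 FPKM in IgG, 35.3 and 22.6 in the libraries labelled anti-CTLA4, and 67.0, 48.9 and 53.4 in CD4 depletion. It was called in both comparisons, at -0.94 ± 0.26 (adjusted p = 0.0292) and 0.96 ± 0.24 (adjusted p = 0.0269). Median-of-ratios scaling ended both calls. Tpi1, which interconverts the triose phosphates, was at 334 and 218 FPKM in IgG, 161 and 97.1 in the libraries labelled anti-CTLA4, and 272, 170 and 243 in CD4 depletion, and was called only in the first comparison (-1.10 ± 0.35, adjusted p = 0.0423). That call also ended under median-of-ratios scaling.

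**Figure D4:**
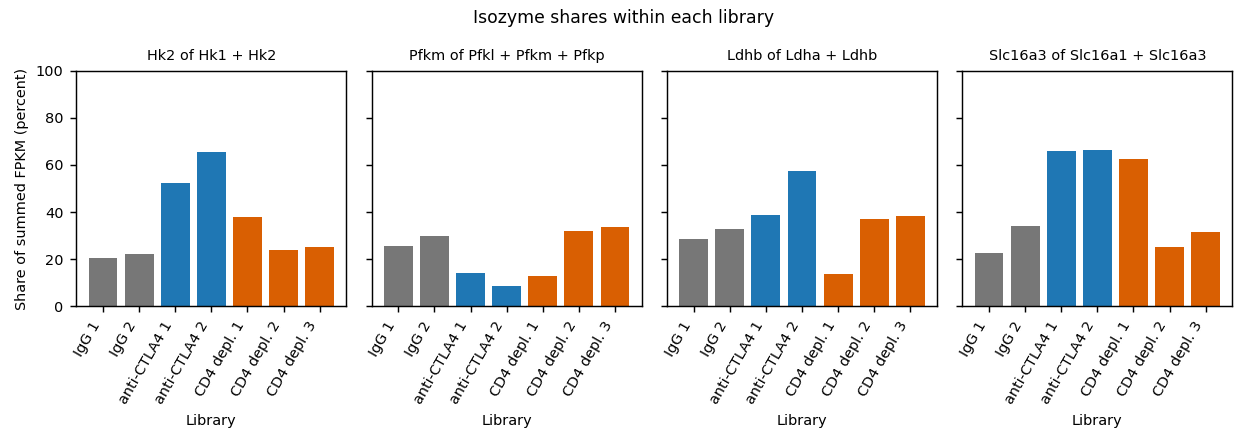
Share of 1 isozyme or carrier in the summed FPKM of its family, in percent, 1 bar per library. Hk2 and Slc16a3 make up over 50% of their pairs in both libraries labelled anti-CTLA4, Pfkm is at its lowest there at 8.602%, and Ldhb is lowest in CD4 depletion replicate 1 at 13.8%.

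In the lower part, from the triose phosphates to pyruvate, Pgk1 was the only 1 of 6 members called. Of all tested genes, 28.8% were lower and 9.29% higher in the first comparison, and 22.8% were higher and 6.59% lower in the second. Pgk1 makes the first ATP of the pathway and was at 13.3 and 10.6 FPKM in IgG, 5.77 and 4.50 in the libraries labelled anti-CTLA4, and 12.3, 9.29 and 9.98 in CD4 depletion. The libraries labelled anti-CTLA4 lay below all others, by -1.07 ± 0.21 from IgG (adjusted p = 0.0118) and with CD4 depletion higher by 0.91 ± 0.19 (adjusted p = 0.0174). Median-of-ratios scaling ended the second of these calls. All 6 had a negative difference from IgG and all 6 a positive one with CD4 depletion, with medians of -0.70 and 0.74, and most tested genes had the same signs (4394 of 13028 were above 0 in the first comparison and 8805 in the second). The closest to a call were Pgam1 in the first comparison (-0.71 ± 0.26, adjusted p = 0.0647) and Eno1 in the second (0.69 ± 0.23, adjusted p = 0.0576). Pkm, pyruvate kinase, was at 288 and 229 FPKM in IgG, 191 and 130 in the libraries labelled anti-CTLA4, and 400, 221 and 231 in CD4 depletion. Its libraries did not overlap between the libraries labelled anti-CTLA4 and either other group, but it was not called. Gapdh (17.1 to 39.3 FPKM) and Eno2 (0.869 to 4.70 FPKM), an enolase best known from neurons, were not called either.

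At the end of the pathway, lactate dehydrogenase turns pyruvate into lactate, and Pdk1, a kinase that shuts pyruvate dehydrogenase off, keeps pyruvate from the mitochondria. None of these 3 members was called in the first comparison (28.8% of all tested genes lower, 9.29% higher) or the second (22.8% higher, 6.59% lower). Ldha was at 294 and 241 FPKM in IgG, 225 and 135 in the libraries labelled anti-CTLA4, and 428, 205 and 233 in CD4 depletion. Ldhb, the subunit typical of oxidative tissue, was at 118 and 117 FPKM in IgG, 144 and 183 in the libraries labelled anti-CTLA4, and 68.7, 121 and 145 in CD4 depletion. The subunits thus stood in opposite order in CD4 depletion replicate 1, where Ldha was at its highest and Ldhb at its lowest of the 7 libraries. Pdk1 was at 10.2 and 7.47 FPKM in IgG, 12.6 and 15.7 in the libraries labelled anti-CTLA4, and 10.4, 8.601 and 7.31 in CD4 depletion. Its differences of 0.63 ± 0.23 (adjusted p = 0.0628) and -0.63 ± 0.21 (adjusted p = 0.0551) fell short of the threshold, and both passed under median-of-ratios scaling (adjusted p = 0.0262 and 0.0287). Each passed in only 3 of 16 alternatives. Over these the first difference ran from -0.22 to 0.97 and the second from -0.93 to 0.21, so the sign of both could turn.

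Among the oxygen sensors, Egln1 (PHD2), the main prolyl hydroxylase of HIF (chr8:124908587-124949254, minus strand), was at 30.8 and 26.6 FPKM in IgG, 12.6 and 10.3 in the libraries labelled anti-CTLA4, and 20.3, 20.8 and 19.5 in CD4 depletion. The 3 groups did not overlap, with IgG highest and CD4 depletion between. Egln1 had the smallest adjusted p of any member in the first comparison (-1.26 ± 0.16, adjusted p = 0.00936) and was higher with CD4 depletion by 0.78 ± 0.15 (adjusted p = 0.0152), a call that median-of-ratios scaling ended (0.48, adjusted p = 0.0536). Egln3 (PHD3), itself a HIF target, was at 6.52 and 4.95 FPKM in IgG, 4.29 and 1.18 in the libraries labelled anti-CTLA4, and 8.85, 5.94 and 8.23 in CD4 depletion. It was called only in the second comparison (1.34 ± 0.37, adjusted p = 0.0348), a call that median-of-ratios scaling ended (1.10, adjusted p = 0.0775). Hif1a, the HIF alpha subunit found in most cells, was at 37.5 and 37.3 FPKM in IgG, 37.2 and 32.1 in the libraries labelled anti-CTLA4, and 65.6, 44.9 and 53.2 in CD4 depletion. All 3 CD4 depletion libraries lay above the other 4, and the difference from the libraries labelled anti-CTLA4 was 0.63 ± 0.18 (adjusted p = 0.0400), a call that median-of-ratios scaling ended (0.32, adjusted p = 0.299). Epas1 (HIF2 alpha) stayed between 1.51 and 2.94 FPKM, with no call. HIF is set mainly by protein stability, so these RNA levels do not measure HIF protein.

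The 10 hypoxia response members include secreted signals (Vegfa, Adm), mitochondrial turnover factors (Bnip3, Bnip3l), stress genes (Ndrg1, Ddit4) and enzymes of the secretory pathway (Ero1l, P4ha1). None was called in the first comparison, where 28.8% of all tested genes were lower and 9.29% higher. In the second, Ddit4 alone was called, where 22.8% of all tested genes were higher and 6.59% lower. Ddit4, an inhibitor of mTOR signalling, was at 7.99 and 5.99 FPKM in IgG, 3.04 and 2.07 in the libraries labelled anti-CTLA4, and 28.02, 6.73 and 7.74 in CD4 depletion. The libraries labelled anti-CTLA4 lay below all others, and the difference with CD4 depletion was 1.83 ± 0.54 (adjusted p = 0.0408), or 1.22 without replicate 1 (adjusted p = 0.00682). Median-of-ratios scaling ended this call (1.59, adjusted p = 0.0829), and it was made in 5 of 16 alternatives. Vegfa, the vascular growth factor, was at 16.3 and 13.4 FPKM in IgG, 6.88 and 3.48 in the libraries labelled anti-CTLA4, and 47.9, 12.04 and 11.2 in CD4 depletion. It spanned the widest range of any member, 13.8-fold from lowest to highest library. Its differences of -1.41 ± 0.64 (adjusted p = 0.118) and 1.74 ± 0.59 (adjusted p = 0.0604) did not pass. Without CD4 depletion replicate 1 both did, the second at a smaller 1.09 (adjusted p = 0.00669 and 0.0191). Of 16 alternatives, 3 called the first difference and 2 the second. Adm, the vasodilator peptide adrenomedullin, was at 12.6 and 3.09 FPKM in IgG, 5.98 and 2.32 in the libraries labelled anti-CTLA4, and 11.9, 11.3 and 15.9 in CD4 depletion, and was not called. Its IgG libraries spanned most of the range of the others. Bnip3 (10.2 to 30.5 FPKM), Ero1l (5.21 to 17.9), Ankrd37 (2.81 to 10.6) and Ndrg1 (2.48 to 11.1) were each highest in CD4 depletion replicate 1. Bnip3l (11.4 to 15.9), P4ha1 (35.1 to 54.0) and Car9 (0.352 to 1.59) were not.

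**Figure D5:**
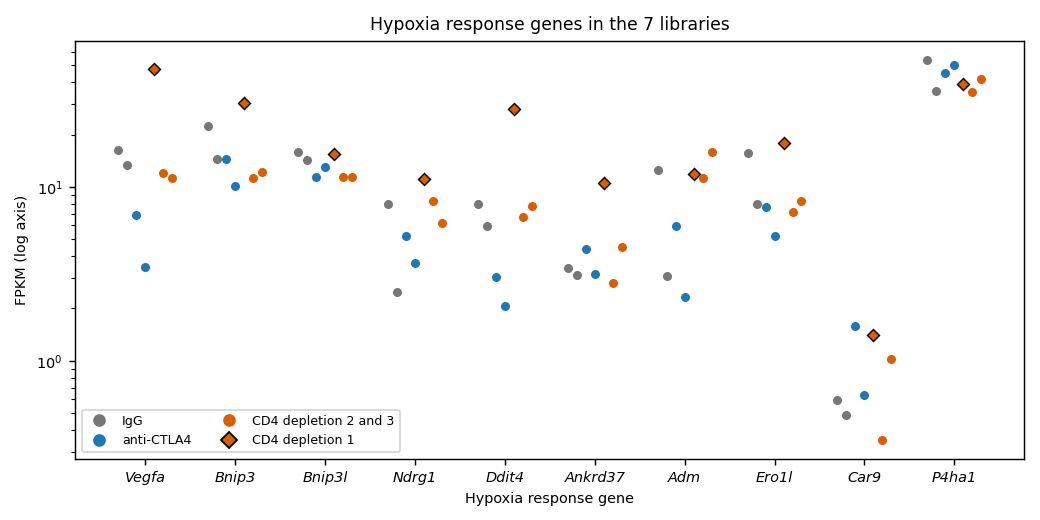
FPKM (log axis) of the 10 hypoxia response members, 1 point per library. CD4 depletion replicate 1 (diamond) is highest for 6 of the 10, from Vegfa at 47.9 to Ankrd37 at 10.6, and the libraries labelled anti-CTLA4 (blue) are lowest for Vegfa and Ddit4.

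The members were unevenly spread within the CD4 depletion group. In replicate 1, 13 of 36 (36.1%) were at least 1.5 times the mean of replicates 2 and 3, against 8.93% of all tested genes, and 5 (13.9%) were at most the inverse, against 21.8%. The median ratio was 1.33 for the members and 0.87 for all tested genes. The largest ratios were those of Slc16a3 (4.20), Vegfa (4.12), Ddit4 (3.87) and Ankrd37 (2.88), and the smallest were those of Aldoc (0.44), Pfkm (0.45), Ldhb (0.52) and Epas1 (0.57). Glycolytic members with a high ratio were Pfkp (2.49), Ldha (1.95), Slc2a1 (1.79) and Pkm (1.77). The same library held the high monocyte and neutrophil marker sums given above, with Chil3 at 487 FPKM against at most 12.2 elsewhere and S100a8 at 227 against at most 32.3. Its homeostatic sum, 3924 FPKM, was the lowest of the 7. As this rests on 1 library, it has no replicate check. The neutrophil list was split as given above, and the part of any cells with these markers in the members' values was not tested.

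Genes of the same pathways outside the 36 were followed as lists. In the first comparison, of 12 tested genes for the entry of pyruvate into mitochondria 5 were lower and 0 higher: the pyruvate dehydrogenase subunits Pdhb (-0.88 ± 0.16, adjusted p = 0.0108), Dlat (-1.001 ± 0.19, adjusted p = 0.0114), Pdha1 (-0.96 ± 0.21, adjusted p = 0.0154) and Dld, and the pyruvate carrier Mpc2. The same 5 were higher with CD4 depletion, with Dld at 0.88 ± 0.16 (adjusted p = 0.0141). Of 7 pentose phosphate genes 3 were lower in the first comparison (Rpe, G6pdx and Tkt) and 2 higher in the second (G6pdx and Pgls). Of 10 gluconeogenesis and glycogen genes, Pgm1 and Gys1 were lower in the first and higher in the second. The medians of these 3 lists in the first comparison were -0.56, -0.50 and -0.07, against -0.31 for all tested genes.

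Among 12 other glycolytic isozymes and sugar carriers, 2 were higher and 2 lower than IgG in the libraries labelled anti-CTLA4. Hk3, the hexokinase of myeloid cells, was higher by 1.72 ± 0.19 (adjusted p = 0.00936). So was Pfkfb4, except under scaling to the homeostatic list, which took its difference to -0.0014. The glucose carrier Slc2a3 was lower by -1.80 ± 0.35 (adjusted p = 0.0119), as was Bpgm. With CD4 depletion Hk3 was lower (-1.33 ± 0.17, adjusted p = 0.0114) and Slc2a3 higher (1.61 ± 0.32, adjusted p = 0.0164). Of 9 HIF partners and regulators, Rbx1, a part of the ligase that destroys HIF alpha, was lower (-1.11 ± 0.20, adjusted p = 0.0107) and so was Arnt2. Os9 was higher, but at -0.45 and not called under that scaling. Only Rbx1 was called in the second comparison (0.79 ± 0.18, adjusted p = 0.0216). Of 22 other genes known to be induced by hypoxia, 7 were lower and 1, Plod1 (0.77 ± 0.15, adjusted p = 0.0125), was higher in the first comparison. Under that scaling Plod1 was at -0.14 and not called. The lower ones were the collagen-modifying Plod2 (-1.31 ± 0.29, adjusted p = 0.0153), Higd1a, Bhlhe40, Ak4, Vldlr, Mif and Fam162a. In the second, 5 were higher, led by the transcription factor Bhlhe40 (1.87 ± 0.32, adjusted p = 0.0131), and Car12 was lower. These counts stood beside a background of 28.8% lower and 9.29% higher in the first comparison and of 22.8% higher and 6.59% lower in the second, and between CD4 depletion and IgG 0 genes of any of these lists passed. Of the 25 genes of these lists called in the first comparison and the 18 in the second, 13 and 6 passed under median-of-ratios scaling. None passed without the second of the libraries labelled anti-CTLA4, or in the first comparison without IgG replicate 1, where 0 of all 13028 genes passed either.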

How the data were processed

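RNA from 7 libraries of sorted microglia was sequenced, and the deposited table gives FPKM for 24537 genes, which the authors made with HOMER's exon counting on mm10, 1 entry per gene, reads of both strands counted, per the file headers. Genes and overlapping or antisense partners therefore cannot be told apart. STAR, HOMER and DESeq2 are named in the submitters' processing notes, without versions. The deposited table's other column, transcript length, was used with low values to recover depth: of 266 to 300 low values in each library, 100% came within 0.1 of whole reads, which implied 84100000 to 107600000 reads in total. No count test was run.

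Genes that reached 1 FPKM in 2 or more libraries (13028) were fitted as log2(FPKM + 1) with limma 3.58.1 (R 4.3.3), all 3 groups in 1 fit with a mean-variance trend, two-sided, Benjamini-Hochberg adjusted over all of them, threshold 0.05. Fold changes on this scale understate those of low genes. With 2 or 3 libraries a group, exact permutation could not go below 0.05. Each library's value is given for the members, and for other pathway genes the rule was up to 3 with the smallest adjusted p per list. The members and lists were chosen with earlier results of these data known. Near copies were sought with blastn 2.17.0 in GENCODE M21. The fit was tested on simulated data with 200 changed genes, fewer than were called here. In the first and second comparisons it recovered 17% and 30% of changes of log2 1, and 71% and 77% of changes of log2 2. It called 2 and 7 unchanged genes. A member not called may therefore still differ. Alternatives were the pseudocount, filters, scalings, the samples fitted, the trend, a replicate block and leaving out each library.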

Additional observations from a re-analysis of the deposited data

How the results depend on the processing

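The reported counts, here after "from", apply to every alternative below. Without a filter on low values, the first comparison (libraries labelled anti-CTLA4 against IgG) had 0 members higher (from 2), 3 lower (from 9), 513 genes higher (from 1210) and 1364 lower (from 3747), and the second (CD4 depletion against the libraries labelled anti-CTLA4) had 2 members higher (from 10), 0 lower (from 1), 516 genes higher (from 2969) and 246 lower (from 858). The third, CD4 depletion against IgG, had 3 genes lower (from 0). Median-of-ratios scaling gave 2132 genes higher and 2050 lower in the first comparison, and 3 members and 1455 genes higher with 3 members and 1648 genes lower in the second. Quantile normalization gave 1928 and 2081 genes in the first, and 6 members and 1452 genes higher with 2 members and 1460 genes lower in the second. Scaling to the homeostatic list gave 0 members and 75 genes higher with 17 members and 6246 genes lower in the first, and 22 members and 6675 genes higher with 0 members and 98 genes lower in the second. Among these alternatives it alone turned the sign of a called difference, and none of those turned was then called. Hk2 went to -0.0046 and 0.0893, Pfkfb3 to -0.0745, and of the other pathway genes Pfkfb4 to -0.0014, Os9 to -0.4534 and Plod1 to -0.1364. Fitting only the 2 groups gave 4 members higher in the first comparison. Apart from each scaling's own shift of all genes, the causes were not tested. Leaving out 1 library gave, in the first comparison, 0 to 5 members and 0 to 1644 genes higher with 0 to 13 members and 0 to 4425 genes lower, and in the second 0 to 11 members and 0 to 4133 genes higher with 0 to 2 members and 0 to 1158 genes lower. A lone library of a group was then assumed to vary like the others.

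Whether the replicate numbers of the labels pair the samples could not be decided. Deviations of same-numbered libraries correlated at -0.12 between IgG and the libraries labelled anti-CTLA4, at -0.18 and -0.20 between IgG and CD4 depletion, and at 0.08 and 0.12 between the other 2 groups. In a group of 2 libraries the deviations mirror each other, so crossing its numbers only turns the sign of these values. With the replicate block the first comparison had 1 member and 597 genes higher and 2068 genes lower, and the second had 0 members and 0 genes in either direction. With crossed numbers, an alternative chosen after seeing the data, the first had 2 members and 1085 genes higher and 7 members and 2732 genes lower. Slc16a1 was called in 14 of 16 alternatives in both comparisons, and Egln1 in 14 and 13.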

Other observations

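Shares within 3 further families were as follows. Aldoc made up 7.23% and 15.4% of the summed aldolases in IgG, 4.19% and 3.72% in the libraries labelled anti-CTLA4, and 5.52%, 15.2% and 17.7% in CD4 depletion, so replicate 1 lay nearer to the libraries labelled anti-CTLA4. Epas1 made up 4.69% to 7.32% of the summed HIF alpha subunits in every library but CD4 depletion replicate 1, where it was 2.25%. Eno2 was 1.46% to 4.94% of the summed Eno1 and Eno2, a share that rests on the uncertain level of Eno1.

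Eno1b, 1 of 3 other annotated genes with at least 95% identity to Eno1 over at least 300 aligned bases, was listed at 68.0 to 166 FPKM. It ordered the libraries as Eno1 did, from the second of the libraries labelled anti-CTLA4 up to CD4 depletion replicate 1. As the assignment of reads that match both is not given, the shared order is not separate evidence.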
